A study of Mus musculus with 18 samples.

Results

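The comparison described here asked whether the response to interferon gamma (IFNγ) differed when protein synthesis was blocked with cycloheximide (CHX), and it used 12 of the 18 arrays of the series. These arrays held the 4 treatments of a factorial design, with 3 biological replicates each: IFNγ with CHX, CHX without IFN (mock, + CHX), IFNγ without CHX and mock without CHX. For each probe set the interaction was calculated on the log2 scale as IFNγ minus mock with CHX, minus the same difference without CHX. A positive interaction thus means a higher response to IFNγ in the presence of CHX, and a negative one a lower response. The same number is also the effect of CHX in IFNγ-treated cells minus its effect in mock cells.

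All cultures were NIH-3T3 cells, an established line of mouse embryonic fibroblasts, so that every value comes from a single cell line. CHX at 50 µg/ml or its solvent DMSO was given 15 min before IFNγ at 100 U/ml or mock, and IFNγ was left for 60 min. In all 4 treatments 4-thiouridine (4sU) at 500 µM was present from 30 min to the end, and the arrays were hybridised with the 4sU-tagged, newly transcribed RNA purified from total RNA. The other 6 arrays held IFNα-treated cells with and without CHX, which entered the estimate of the spread and the comparison of both IFNs.

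IFNγ binds a receptor that activates the kinases JAK1 and JAK2, which phosphorylate transcription factors of the STAT family. STAT dimers bind GAS elements in promoters and start a first wave of transcription that needs no new protein. Products of this wave, among them the transcription factor IRF1, drive a second wave through ISRE elements, and others such as the SOCS proteins and USP18 dampen signalling. CHX stops translational elongation, so that second-wave activators and newly made inhibitors are not produced, and short-lived proteins already in the cell are lost. CHX by itself is known to release NF-κB from its labile inhibitors.

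Array medians lay between 9.6 and 10.8 intensity units and upper quartiles between 114.6 and 141. The replicate 1 arrays of IFNγ with CHX and of CHX alone had the lowest upper quartiles, at 114.6 and 115.8. All 13 fibroblast markers exceeded an intensity of 100 on at least 1 of the 12 arrays. Of the leukocyte, epithelial and endothelial markers on the array, 9 of 15, 5 of 10 and 9 of 10 stayed below 8.5, the lowest maximum of a probe set that was kept. The summed leukocyte markers were 349.9 to 584 units with IFNγ and CHX, 342.6 to 600.1 with CHX, 218.9 to 398.6 with IFNγ and 278.2 to 366 in mock cells. Of the leukocyte markers 2 exceeded an intensity of 100, among them *Cd68*, which lay between 53.5 and 284.1. The exception among the endothelial markers was *Flt1*, a receptor of vascular endothelial growth factor, which is treated below.

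Of the 27773 probe sets tested, 55 had a higher and 11 a lower response to IFNγ with CHX, at an adjusted p under 0.01 and a difference of at least 2-fold, which is 0.198% and 0.0396%. With a single probe set for each of 12121 genes, 37 (0.305%) were higher and 7 (0.0578%) lower, and the median interaction over these genes was -0.02. Unadjusted p-values under 0.05 were found for 2162 probe sets (7.78%), beside the share of 0.05 that this threshold passes without any difference. Because the arrays average over a culture, a higher signal per cell and more cells with a signal cannot be told apart.

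IFNγ itself raised 714 (2.57%) and lowered 170 (0.612%) probe sets with CHX, against 394 (1.42%) raised and 58 (0.209%) lowered without CHX. CHX raised 792 (2.85%) and lowered 1540 (5.54%) in IFNγ-treated cells, against 698 (2.51%) and 1131 (4.07%) in mock cells. These 4 comparisons share arrays with each other and with the interaction, and are used below to show from which treatment each difference arose.

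**Figure D1:**
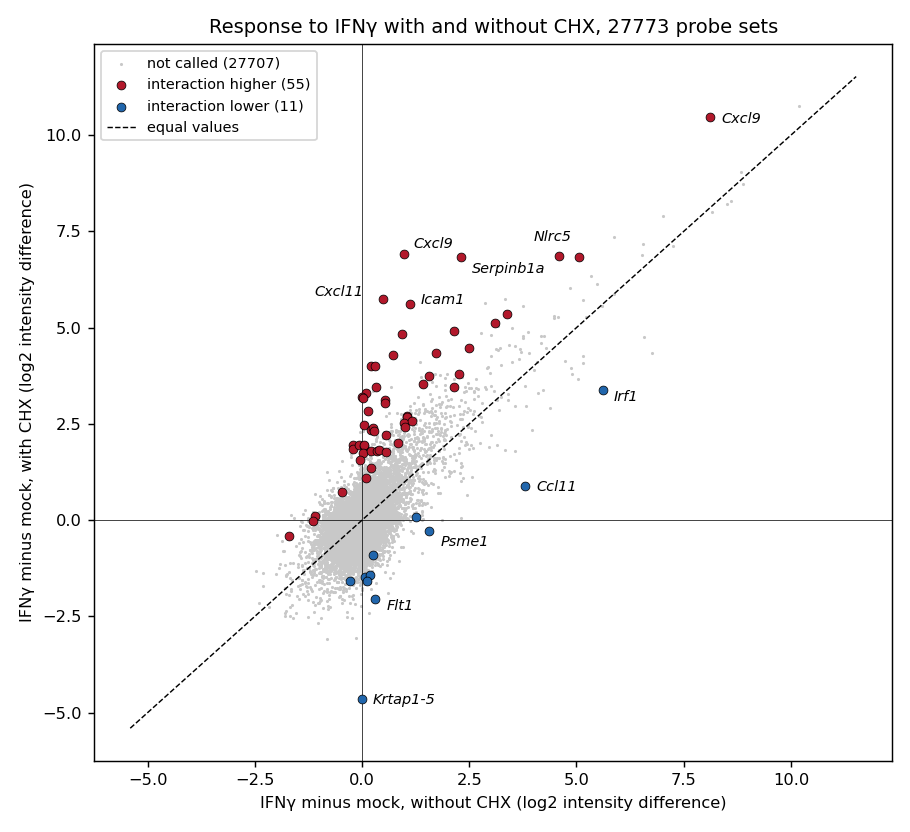
Response to IFNγ with CHX (vertical axis) against the response without CHX (horizontal axis), both as log2 intensity differences from the matching mock arrays, 3 arrays per treatment. Each point is 1 of 27773 probe sets, red marks the 55 with a higher and blue the 11 with a lower response with CHX, and most red points lie at small responses without CHX.

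The 55 probe sets with a higher response represented 46 genes with a single symbol, 5 had no gene symbol and 1 had several. Their median interaction was 2.02, with a median response to IFNγ of 2.71 with CHX and 0.49 without CHX. IFNγ raised 51 of them with CHX, 16 of which it also raised without CHX, while 35 were not called without CHX. The remaining 4 consisted of 3 that IFNγ lowered without CHX only and 1 that was called in neither response. For 46 of the 55 the 3 arrays with IFNγ and CHX lay above all other 9 arrays, as did 2.87% of all probe sets tested, an order that follows largely from the call itself. The interaction had the same sign in all 3 replicate numbers for each of the 55 and of the 11 probe sets, which follows in part from the call itself.

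The largest group comprised 23 probe sets that passed the call with neither IFNγ nor CHX alone, but rose with both over either agent alone. Smaller differences with one agent were present in this group, such as 0.94 for *Serpinb1b* with IFNγ alone (adjusted p = 1.05e-04) and 0.94 for *Manba* with CHX alone (adjusted p = 0.00885). Many were near the lower end of the array with either agent, and 22 of the 55 had 2 or more treatments with a mean below 8.5. For 9 of the 55 there were 3 such treatments, and such probe sets could pass the filter through the arrays with both agents alone.

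*Cxcl11*, a chemokine that attracts activated T cells through CXCR3, belonged to this group. Its intensities were 641, 347 and 423 with IFNγ and CHX, 9.4, 8.3 and 7.9 with CHX alone, 14.1, 12.3 and 8.8 with IFNγ alone and 8.8, 8.2 and 7.7 in mock cells. The 3 arrays with both agents were far above the other 9, among which the IFNγ arrays reached slightly higher than mock. The interaction was 5.25 ± 0.42 (log2 ± SE, 3 arrays per treatment, adjusted p = 2.61e-05). A second probe set of *Cxcl11* gave 0.45 ± 0.25 and was not called (adjusted p = 0.754). Its mean intensity with both agents was 17.7.

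The largest interaction of all probe sets, 5.94 ± 0.31 (adjusted p = 1.79e-07), belonged to the dimmer of 2 called probe sets of *Cxcl9*, another CXCR3 ligand. It had 965, 930.1 and 880.3 with IFNγ and CHX, 7.7, 7.6 and 7.6 with CHX alone, 18.4, 19.9 and 8.8 with IFNγ alone and 7.7, 7.3 and 7.5 in mock cells, so that IFNγ alone gave a small signal that was not called. The brighter probe set behaved differently and is given with the next group.

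*Icam1*, which encodes an adhesion ligand of leukocyte integrins, had 376, 274 and 206 with IFNγ and CHX, 5.6, 5.8 and 5.5 with CHX alone, 13.9, 14.4 and 6.9 with IFNγ alone and 5.4, 5.1 and 4.9 in mock cells. The interaction was 4.50 ± 0.34 (adjusted p = 1.43e-05). Here IFNγ alone gave signals above mock on every array, but the response did not reach the call (1.12 without CHX, against 5.62 with CHX). With 16 units added to every intensity before taking log2, which lessens the weight of differences near background, the interaction was 3.38.

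*Serpinb1b*, a serine protease inhibitor gene, had 169, 206 and 169 with IFNγ and CHX, 6.5, 6.2 and 6.2 with CHX alone, 12.7, 12.8 and 9.5 with IFNγ alone and 6.3, 5.8 and 6 in mock cells, with an interaction of 3.90 ± 0.16 (adjusted p = 8.82e-09). Its paralog *Serpinb1a* was called with IFNγ alone as well and is given below. Paralogs can share probes, so that part of one signal may stem from the other gene. In the RefSeq annotation 4 other protein-coding genes lie between them.

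*Sgk2*, which encodes a kinase of the serum- and glucocorticoid-regulated family, had intensities of 43, 37.2 and 38 with IFNγ and CHX, 4.4, 4.3 and 4.3 with CHX alone, 4.3, 4.3 and 4.2 with IFNγ alone and 4.3, 4.1 and 4.2 in mock cells. All 9 arrays without the combination were flat at the floor, and the interaction was 3.16 ± 0.10 (adjusted p = 5.92e-10). The log2 SD was 0.11 with both agents and 0.02, 0.02 and 0.03 with CHX alone, with IFNγ alone and in mock cells. The SE pools all treatments, so it does not show the spread with both agents by itself. This probe set exceeded 8.5, the lowest maximum kept, only on the arrays with both agents, so the filter and the interaction rest on the same values. With 16 units added the interaction was 1.44 (adjusted p = 6.30e-09).

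*Manba*, a lysosomal mannosidase gene, reached 359.9, 259 and 258 with IFNγ and CHX, against 19.3, 12.7 and 12.8 with CHX alone and 6.8 to 12.8 on the 6 arrays without CHX. Its interaction was 3.57 ± 0.32 (adjusted p = 6.74e-05). *Arrdc2*, an arrestin-domain gene, reached 683, 329.7 and 320.5 with both agents and stayed between 15.8 and 36.3 on the other 9 arrays (interaction 3.79 ± 0.41, adjusted p = 4.75e-04). *Rsph3a*, named for a radial spoke protein of cilia, reached 558, 372 and 378 against 24 to 49.5 on the other 9 (interaction 3.12 ± 0.31, adjusted p = 2.08e-04). The arrays with both agents were above all others for these 3 genes, and the calls of *Manba*, *Arrdc2* and *Rsph3a* held in 12, 12 and 12 of the 12 fits that left out 1 array.

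*Hsf5*, *Rskr* and *Vmn1r42* belonged to the same group, with interactions of 2.70 ± 0.38, 2.43 ± 0.39 and 3.20 ± 0.49. *Hsf5* is a member of the heat shock factor family, *Rskr* a kinase related to the ribosomal S6 kinases and *Vmn1r42* a vomeronasal receptor gene. The arrays of *Vmn1r42* with both agents were at 98.8, 34.8 and 104, against 5.3 to 10.2 on the other 9. Those of *Rskr* were at 56.9, 30.1 and 17.5. In this order of genes, the log2 SD with both agents was 0.61, 0.85 and 0.89 for *Hsf5*, *Rskr* and *Vmn1r42*. It was at most 0.20, 0.04 and 0.37 with CHX alone, with IFNγ alone or in mock cells. The SE of the fit pools all treatments and so does not show this difference in spread. The calls of *Hsf5*, *Rskr* and *Vmn1r42* held in 4, 2 and 1 of the 12 fits that left out 1 array, and in none with 16 units added (adjusted p = 0.0103, 0.0718 and 0.0253). Those of *Rskr* and *Vmn1r42* were also lost without the filter on low values (adjusted p = 0.0181 and 0.0143).

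*Usp18*, whose product restrains type I IFN receptor signalling, had 24, 40.2 and 24.9 with IFNγ and CHX, 5.9, 6.4 and 6.4 with CHX alone, 9.4, 9 and 9.8 with IFNγ alone and 6.5, 6.5 and 6.2 in mock cells. Signals were low, with the combination above all other arrays and IFNγ alone above mock, while CHX alone overlapped with mock. The interaction was 1.66 ± 0.21 (adjusted p = 0.00197), and 0.84 with 16 units added (adjusted p = 0.0152), which ended the call.

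**Figure D2:**
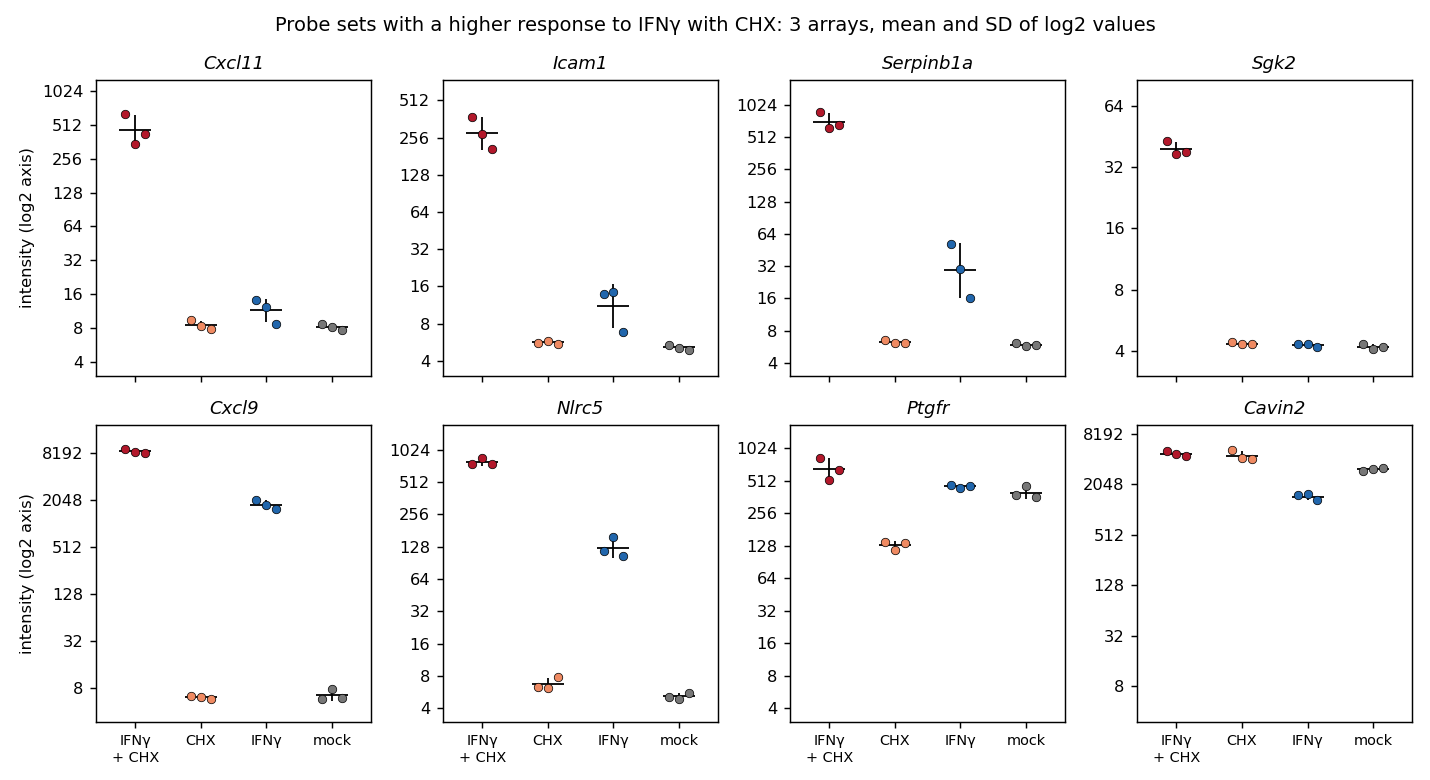
Intensity of 8 probe sets with a higher response to IFNγ with CHX, on log2 axes of different range, for IFNγ with CHX, CHX, IFNγ and mock from left to right. Points are the 3 arrays of a treatment, and bars are the mean and SD of the log2 values. *Cxcl11*, *Icam1* and *Sgk2* were far higher with both agents than with either alone, *Serpinb1a*, *Cxcl9* (brighter probe set) and *Nlrc5* were raised by IFNγ alone and further with CHX, *Ptgfr* was low with CHX alone, and *Cavin2* was low with IFNγ alone.

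A second group, of 16 probe sets, was raised by IFNγ in both conditions and more so with CHX. *Cxcl9*, by its brighter probe set, had 9420, 8459.8 and 8316 with IFNγ and CHX, 6.5, 6.3 and 5.8 with CHX alone, 2099, 1782 and 1606 with IFNγ alone and 5.8, 7.9 and 6.1 in mock cells. The response was 10.46 with CHX against 8.12 without CHX, so that the interaction of 2.34 ± 0.30 (adjusted p = 0.00183) came on top of an already very large induction. Without the replicate 1 arrays of IFNγ with CHX and of CHX alone the adjusted p was 0.0124, which ended the call. The size of the interaction thus differed widely from that of the dimmer probe set given above, so that no single fold change can be given for this gene.

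*Serpinb1a*, an inhibitor of neutrophil serine proteases, had 879.8, 622 and 671 with IFNγ and CHX, 6.6, 6.1 and 6.1 with CHX alone, 52, 30 and 16 with IFNγ alone and 6.1, 5.8 and 5.9 in mock cells. IFNγ alone raised it by 2.30, with widely spread arrays, and the combination by 6.84 over CHX alone (interaction 4.54 ± 0.40, adjusted p = 6.25e-05). A second probe set of *Serpinb1a* gave 1.50 ± 0.31 and was not called (adjusted p = 0.0472).

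*Nlrc5*, the transactivator of MHC class I genes, had 755, 863 and 744 with IFNγ and CHX, 6.3, 6.2 and 7.8 with CHX alone, 116, 157 and 106 with IFNγ alone and 5.1, 4.9 and 5.6 in mock cells (interaction 2.28 ± 0.21, adjusted p = 8.95e-05). *Trim21*, a cytosolic antibody receptor and ubiquitin ligase, had 682, 549.6 and 528 with IFNγ and CHX, 4.7, 4.6 and 6 with CHX alone, 307, 260.5 and 229 with IFNγ alone and 8.1, 7.7 and 7.8 in mock cells (interaction 1.78 ± 0.27, adjusted p = 0.00714). Signals with both agents exceeded those with IFNγ alone on every array for both genes. For *Trim21* the mock level was also lower with CHX (-0.64, not called), and the interaction was 1.28 with 16 units added (adjusted p = 0.0269), which ended the call. *Ddx58*, which encodes the viral RNA sensor RIG-I, had 213, 164 and 172 with IFNγ and CHX, 34.2, 22.6 and 27.8 with CHX alone, 43.6, 48.4 and 44.1 with IFNγ alone and 19.6, 25 and 21.8 in mock cells (interaction 1.67 ± 0.24, adjusted p = 0.00401). Other probe sets of these genes were not called, at 0.84 for *Trim21* and 1.03 and 0.73 for *Ddx58*. The calls of *Trim21* and *Ddx58* held in 3 and 5 of the 12 fits without 1 array.

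*Smoc1*, a secreted calcium-binding matrix protein gene, had 876, 675 and 534 with both agents, 18.1, 28.4 and 22.5 with CHX, 108, 100 and 88.6 with IFNγ and 29, 18.1 and 21.1 in mock cells (interaction 2.77 ± 0.29, adjusted p = 3.61e-04). *Lrrtm2*, a synaptic adhesion gene, rose by 4.34 with CHX against 1.74 without CHX (interaction 2.61 ± 0.26, adjusted p = 1.76e-04). Of the other members of this group, *Il18rap*, which encodes the accessory chain of the interleukin-18 receptor, was picked after its values had been seen. It had 670, 395 and 698 with both agents, 14.9, 14.9 and 20.2 with CHX, 140.1, 166 and 188 with IFNγ and 18.8, 19.7 and 18.7 in mock cells (interaction 2.01 ± 0.27, adjusted p = 0.00219). Other probe sets gave 2.08 and 0.69 for *Lrrtm2* and 1.51 for *Il18rap*, none called.

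In another group the CHX effect was called in mock cells. For 10 of the 55 probe sets CHX lowered the signal of mock cells but its effect was not called in IFNγ-treated cells, where smaller rises were present for some, such as 0.57 for *Nampt* (adjusted p = 0.0116). *Zbed5*, a zinc finger gene derived from a transposon, had 72.8, 75.8 and 75.9 with IFNγ and CHX, 8.9, 8.3 and 8.4 with CHX alone, 85.8, 82.2 and 74.7 with IFNγ alone and 98.5, 47.4 and 37.3 in mock cells. Only the arrays with CHX alone were low, and the interaction was 2.60 ± 0.40 (adjusted p = 0.00739). The mock arrays were widely spread (log2 SD 0.73). This call held in 2 of the 12 fits without 1 array and was lost with 16 units added (1.48, adjusted p = 0.0548).

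Brighter members of this group, picked after their values had been seen, were *Ptgfr*, *Pde4b* and *Nampt*. *Ptgfr*, which encodes the receptor of prostaglandin F, had 837, 520.4 and 650.5 with IFNγ and CHX, 139, 117 and 135 with CHX alone, 469, 438 and 462 with IFNγ alone and 374, 460.3 and 364 in mock cells. CHX changed it by 0.53 with IFNγ and by -1.61 in mock cells, and the interaction was 2.14 ± 0.25 (adjusted p = 0.00122). *Pde4b*, a cyclic AMP phosphodiesterase gene, had 3930.2, 7388 and 5700 with IFNγ and CHX, 289, 537 and 445 with CHX alone, 5217, 4337 and 3905 with IFNγ alone and 1505, 1484 and 1523 in mock cells (interaction 2.18 ± 0.35, adjusted p = 0.00967), and its call held in 2 of the 12 fits without 1 array. Further *Pde4b* probe sets gave 1.75 ± 0.42 and 1.22 ± 0.93 and were not called. *Nampt*, which encodes the salvage enzyme of NAD synthesis, had 1097, 909 and 1258 with IFNγ and CHX, 182, 155 and 173 with CHX alone, 691, 757 and 735 with IFNγ alone and 351, 422 and 289.8 in mock cells (interaction 1.61 ± 0.21, adjusted p = 0.00197). For *Pde4b* and *Nampt* IFNγ alone also raised the signal over mock, whereas for *Ptgfr* the response was called with CHX and not without CHX. Of the other probe sets of *Ptgfr* and *Nampt* none was called, with values of 3.10, 1.80, 0.12 and 0.04 for *Ptgfr* and 1.49 and 1.64 for *Nampt*.

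For 3 probe sets IFNγ was called to lower the signal without CHX and not with CHX, and those of *Itgb8* and *Pacsin3* were also among the 10 above. *Itgb8*, an integrin beta chain gene, had 21, 26.7 and 23.2 with IFNγ and CHX, 34, 30.1 and 30.1 with CHX alone, 27.7, 32.9 and 26 with IFNγ alone and 89.7, 113 and 82.4 in mock cells. All arrays with either agent were below the mock arrays, and the interaction was 1.30 ± 0.21 (adjusted p = 0.00975), a call that was lost in each of the 12 fits without 1 array. *Cavin2*, a coat protein gene of caveolae picked after its values had been seen, had 5164, 4735 and 4412 with IFNγ and CHX, 5182, 4165 and 4106 with CHX alone, 1507, 1547 and 1321 with IFNγ alone and 2981, 3118 and 3230.3 in mock cells (interaction 1.19 ± 0.15, adjusted p = 0.00197). Only the IFNγ arrays were low, and 2 further probe sets of *Cavin2* gave 1.56 ± 0.56 and 1.65 ± 0.64 without reaching the call. The other probe set, of *Pacsin3*, lay between 3.5 and 10 on the 12 arrays.

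The 11 probe sets with a lower response all had a single gene symbol and stood for 11 genes. Their median interaction was −1.69. IFNγ lowered 6 of them with CHX and none of these without CHX, raised 3 without CHX and not with CHX, and raised 1 in both conditions. The last was called in neither response. On 5 of the 11 the arrays with IFNγ and CHX lay below all other 9, as did 3.9% of all probe sets tested.

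The largest negative interaction belonged to *Krtap1-5*, a keratin-associated protein gene of hair. It had 4.9, 5.7 and 5 with IFNγ and CHX, 194, 113 and 97.9 with CHX alone, 4.8, 4.8 and 4.6 with IFNγ alone and 4.9, 4.7 and 4.7 in mock cells. Only CHX alone gave a signal, and all arrays with IFNγ and CHX were near those of mock cells. The interaction was -4.62 ± 0.60 (adjusted p = 0.00197), and -2.78 with 16 units added (adjusted p = 0.0269), which ended the call. Without the replicate 1 arrays of IFNγ with CHX and of CHX alone it was −4.29 (adjusted p = 0.0165). *Flt1* had the same form, with 7.3, 15.5 and 12.4 with IFNγ and CHX, 63.3, 42.3 and 37.9 with CHX alone, 12.7, 13.4 and 14.2 with IFNγ alone and 10.3, 10.2 and 12 in mock cells (interaction -2.37 ± 0.38, adjusted p = 0.00928). A brighter *Flt1* probe set gave -1.44 ± 0.44 and was not called (adjusted p = 0.274). The call of *Flt1* held in 1 of the 12 fits without 1 array. Of the 10 endothelial markers 9 were below 8.5 on all 12 arrays.

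IFNγ raised *Ccl11* and *Psme1* without CHX, and the response with CHX was below the call. *Ccl11*, the eosinophil attractant eotaxin, had 12.5, 25.4 and 21.2 with IFNγ and CHX, 12.4, 9.4 and 9 with CHX alone, 156, 125 and 128 with IFNγ alone and 9, 9.7 and 10.4 in mock cells. The response was 0.89 with CHX (adjusted p = 0.0127) against 3.81 without CHX (interaction -2.91 ± 0.29, adjusted p = 1.76e-04). *Psme1*, which encodes a subunit of the IFNγ-inducible proteasome activator, had 93.9, 127 and 85.5 with IFNγ and CHX, 108, 149.9 and 113 with CHX alone, 433, 425 and 580.4 with IFNγ alone and 165, 137 and 180.3 in mock cells. IFNγ raised it without CHX (1.57), and with CHX the values with and without IFNγ overlapped (-0.29). The interaction was -1.86 ± 0.26 (adjusted p = 0.00305). It was −1.75 without mock replicate 2 (adjusted p = 0.0128) and −1.71 without replicate 2 of CHX alone (adjusted p = 0.0103), which were the fits without 1 array that lost the call. The call of *Ccl11* was kept in every alternative fit.

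By its called probe set *Znrf2*, a ubiquitin ligase gene, was the other member of this class, with -1.17 ± 0.16 (adjusted p = 0.00297). This probe set was dim, at 11.3 to 35.1 on the 12 arrays. The 3 brighter probe sets of *Znrf2* gave interactions of 0.45, 0.74 and 0.28 and were not called, so that the gene as a whole had no settled direction.

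*Irf1* was raised by IFNγ in both conditions, by 3.38 with CHX and by 5.61 without CHX (interaction -2.23 ± 0.34, adjusted p = 0.00698). Its intensities were 21428, 15500.5 and 16527 with IFNγ and CHX, 2465, 1501 and 1319.9 with CHX alone, 13276, 12456 and 11533 with IFNγ alone and 376, 204 and 213 in mock cells. The level with both agents was thus above that with IFNγ alone on every array, and in mock cells CHX raised *Irf1* by 2.74 ± 0.24. The brightest probe set reached 28722 to 35783 units on these 12 arrays, and the part of a ceiling of the signal in the *Irf1* result was not tested. The call held in 4 of the 12 fits without 1 array.

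A fall with IFNγ was called with CHX and not without CHX for *Clcf1*, *Slco2a1*, *Tnk2* and *Cgref1*. *Clcf1*, a cardiotrophin-like cytokine gene, had 1201, 1650.5 and 1355 with IFNγ and CHX, 3935, 4136 and 4465 with CHX alone, 3676, 4398 and 4212 with IFNγ alone and 5176, 4864 and 4887 in mock cells (interaction -1.30 ± 0.17, adjusted p = 0.00197), and its 2 other probe sets gave -1.27 and -1.13 without being called. *Slco2a1*, a prostaglandin transporter gene, had 94, 143 and 117 with both agents, 314, 294 and 358 with CHX, 195, 275 and 194 with IFNγ and 226, 215 and 188 in mock cells (interaction -1.53 ± 0.23, adjusted p = 0.00677). Its brightest probe set gave -0.74 ± 0.34 (adjusted p = 0.64), and the remaining ones -0.52 and -0.57, none called. *Tnk2*, a tyrosine kinase gene, gave -1.61 ± 0.25 (adjusted p = 0.00739), and *Cgref1*, a calcium-binding growth regulator gene, gave -1.69 ± 0.27 (adjusted p = 0.00928). A second probe set gave -1.31 for *Tnk2* and -0.99 for *Cgref1*, neither called. For *Cgref1* CHX lowered the signal in mock cells as well, by 1.96 on the log2 scale, and IFNγ with CHX brought it to 20.1, 21.8 and 26.3, against 62.7, 73.8 and 67.6 with CHX alone. *Ccn5*, a matricellular protein gene, gave -1.16 ± 0.18 (adjusted p = 0.00739) and passed the call in neither response. The calls of *Slco2a1*, *Tnk2*, *Cgref1* and *Ccn5* held in 2, 1, 2 and 3 of the 12 fits without 1 array, and that of *Clcf1* in all of them.

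**Figure D3:**
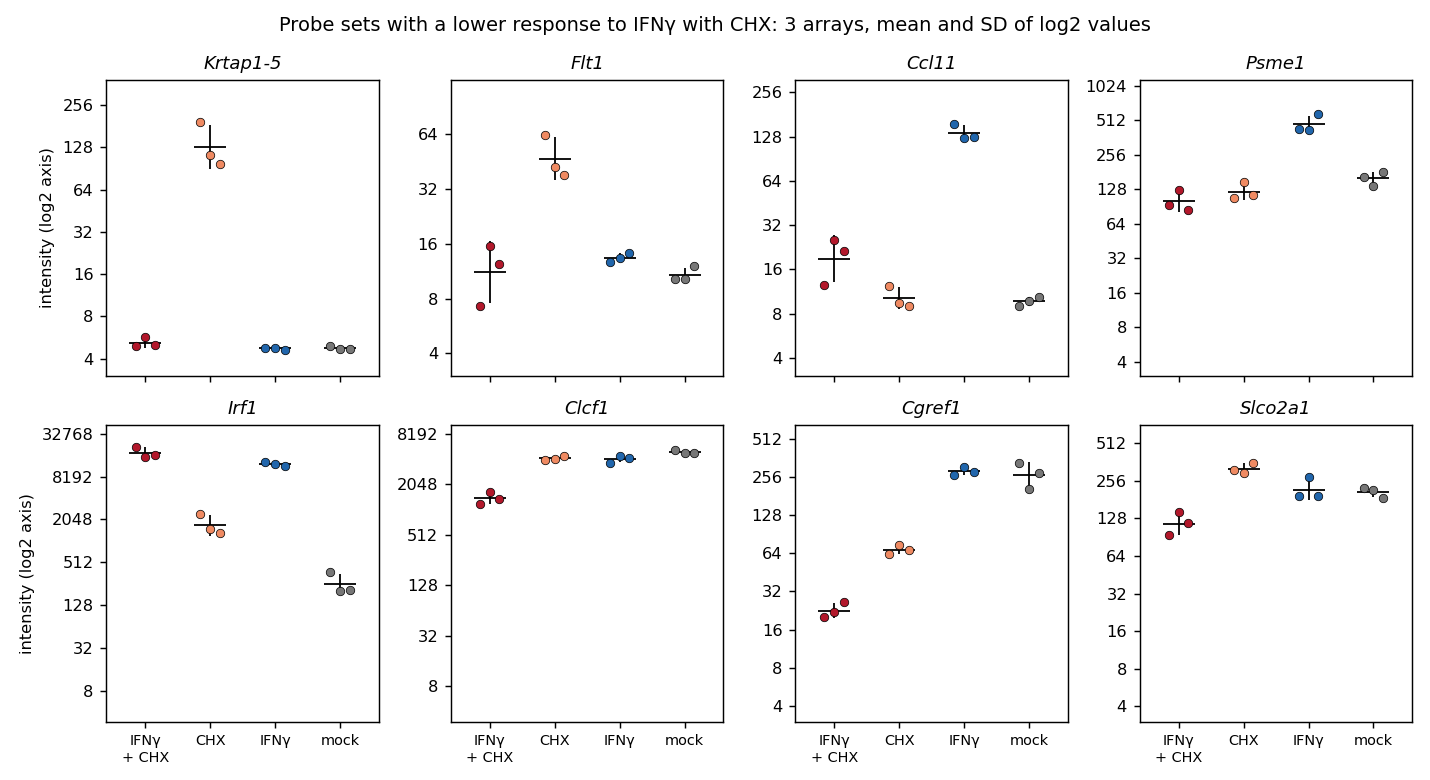
Intensity of 8 probe sets with a lower response to IFNγ with CHX, on log2 axes of different range, for IFNγ with CHX, CHX, IFNγ and mock from left to right. Points are the 3 arrays of a treatment, and bars are the mean and SD of the log2 values. *Krtap1-5* and *Flt1* were high with CHX alone, *Ccl11* and *Psme1* with IFNγ alone, *Irf1* was raised by CHX in mock cells, and *Clcf1*, *Cgref1* and *Slco2a1* were lowest with both agents.

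Read as effects of CHX, the same data separate the groups by treatment. Among the 55 probe sets CHX raised 37 in IFNγ-treated cells, of which 2 were also raised in mock cells, while for 11 probe sets CHX lowered the signal of mock cells. The median CHX effect was 1.71 with IFNγ and 0.02 in mock cells. *Sugct*, a mitochondrial transferase gene picked after its values had been seen, was raised by CHX in both, by 5.14 with IFNγ and by 3.53 in mock cells. *Steap4*, a metalloreductase gene picked likewise, was raised by 3.32 with IFNγ and by 1.21 in mock cells. Among the 11 probe sets CHX lowered 6 in IFNγ-treated cells, of which *Cgref1* was also lowered in mock cells, and raised 3 in mock cells, namely *Irf1*, *Flt1* and *Krtap1-5*.

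**Figure D4:**
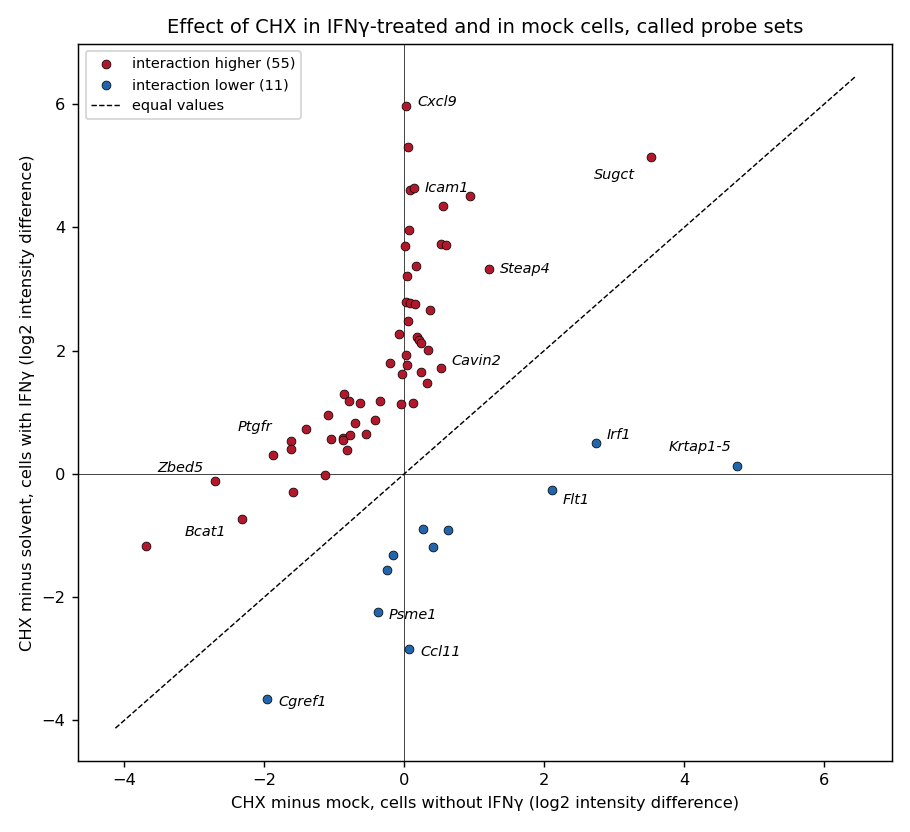
Effect of CHX in IFNγ-treated cells (vertical axis) against its effect in mock cells (horizontal axis), as log2 intensity differences, for the 66 probe sets called in the interaction, 3 arrays per treatment. Red points have a higher and blue points a lower response to IFNγ with CHX. Most red points lie near 0 on the horizontal axis, a lower arm from *Zbed5* to *Bcat1* was lowered by CHX in mock cells, and *Krtap1-5*, *Irf1* and *Flt1* were raised by CHX in mock cells.

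Promoter sequences of genes whose interactions had opposite signs are shown to set their IFN elements side by side. RefSeq windows of 300 bases, most of each before the transcription start, were available for 33 of the 46 genes with a higher response and 8 of the 11 with a lower one, as 41 and 10 windows of build GRCm38.p6. They were searched on both strands for GAS (TTCNNNGAA), ISRE (GAAA-NN-GAAA) and an NF-κB motif (GGG-NNNNN-CC). *Icam1* and *Irf1* each hold a single GAS match, in capitals, although the response of *Icam1* was higher and that of *Irf1* lower with CHX.
Icam1 promoter (chr9:21015690-21015989, plus strand): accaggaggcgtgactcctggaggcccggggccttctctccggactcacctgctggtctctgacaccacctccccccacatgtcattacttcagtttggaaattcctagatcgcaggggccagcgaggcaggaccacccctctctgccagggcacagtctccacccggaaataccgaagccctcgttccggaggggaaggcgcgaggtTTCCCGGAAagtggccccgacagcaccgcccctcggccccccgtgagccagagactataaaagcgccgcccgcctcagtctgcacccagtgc
Irf1 promoter (chr11:53769764-53770063, plus strand): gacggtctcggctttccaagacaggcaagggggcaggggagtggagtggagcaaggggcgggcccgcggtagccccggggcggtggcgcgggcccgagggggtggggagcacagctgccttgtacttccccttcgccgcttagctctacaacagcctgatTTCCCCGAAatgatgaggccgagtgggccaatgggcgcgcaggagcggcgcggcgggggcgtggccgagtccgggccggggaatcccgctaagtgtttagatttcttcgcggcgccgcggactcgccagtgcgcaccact
The match lies at −42 to −34 in *Icam1* and at −90 to −82 in *Irf1*, counted from the start site. *Steap4* holds the same 9 letters as *Icam1*, TTCCCGGAA, at −116 to −108. ISRE letters, again in capitals, were found in *Trim21*, whose response was higher with CHX, and in *Psme1*, whose response was lower.
Trim21 promoter (chr7:102565433-102565732, minus strand): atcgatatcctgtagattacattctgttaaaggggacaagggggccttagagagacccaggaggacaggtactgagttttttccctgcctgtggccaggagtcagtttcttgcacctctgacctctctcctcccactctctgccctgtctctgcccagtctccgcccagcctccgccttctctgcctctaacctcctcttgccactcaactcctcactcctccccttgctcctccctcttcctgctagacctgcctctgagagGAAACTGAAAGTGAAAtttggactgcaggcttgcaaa
Psme1 promoter (chr14:55578244-55578543, plus strand): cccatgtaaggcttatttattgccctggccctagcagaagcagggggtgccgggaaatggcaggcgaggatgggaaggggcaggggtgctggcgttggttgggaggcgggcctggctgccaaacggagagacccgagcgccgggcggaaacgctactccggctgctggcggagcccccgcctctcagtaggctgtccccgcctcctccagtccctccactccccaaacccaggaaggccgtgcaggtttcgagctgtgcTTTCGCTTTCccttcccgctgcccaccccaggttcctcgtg
The *Trim21* window has 2 matches that overlap by 4 letters, at 14 to 23 and 20 to 29, and that of *Psme1* has 1 match on the other strand at 10 to 19, all after the start site. None of the printed matches overlaps a match of another motif.

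Across all windows, GAS letters occurred in 4 of 41 (9.76%) for the genes with a higher and 1 of 10 (10%) for those with a lower response, compared with 8.3% of all 32851 promoters and 6.77% of those of the genes measured. ISRE letters occurred in 2 of 41 (4.88%) and 1 of 10 (10%), compared with 3.44% and 3.04%. The NF-κB letters were in 22 of 41 (53.7%) and 7 of 10 (70%), compared with 50.8% and 65.4%. A gene with several windows counts once for each, also where they nearly coincide, as for *Fndc4* and *Gm20559*. A match is a description of the sequence and says nothing of binding.

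Over all 12121 genes 0.305% were higher and 0.0578% lower, and IFNγ raised 3.41% with CHX and 2.02% without CHX. In mock cells CHX raised 309 and lowered 655 of them, and the interaction was positive for 5716 and negative for 6405. Beside these values stand the counts of the gene lists, and for lists of this size no call is near the shares called. The chemokines that signal through CXCR3 formed the gene list with the highest median interaction, 2.34, with 2 of 3 members higher. The third, *Cxcl10*, had 16721, 12679 and 11407 with IFNγ and CHX, 1530.3, 584 and 324 with CHX alone, 6399, 5230.4 and 4701 with IFNγ alone and 70.4, 49.1 and 35.6 in mock cells, and an interaction of -2.42 ± 0.61 that was not called (adjusted p = 0.127). CHX alone raised it by 3.73 in mock cells, as for *Irf1*, and the level was highest with both agents. Of 21 other chemokines 14 were measured, with 1 lower (*Ccl11*), none higher and a median of -0.76. Within this list 10 members had negative and 4 positive values, among them *Cxcl12*, a stromal chemokine, at -1.01 (adjusted p = 0.0412), and the monocyte attractant *Ccl2* at -0.76. CHX raised 6 of the 14 and lowered 1 in mock cells.

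Of 16 measured genes of MHC class I peptide loading 1 was higher (*Nlrc5*) and 1 lower (*Psme1*), with a median of 0.09. *Tap1*, a subunit of the peptide transporter, had 955, 911 and 734 with IFNγ and CHX, 5.7, 5 and 5 with CHX alone, 442, 397 and 316 with IFNγ alone and 5, 5.6 and 9.9 in mock cells (interaction 1.49 ± 0.30, adjusted p = 0.0416), and it passed the call with 16 units added (1.24, adjusted p = 0.00772). *Tap2*, the other subunit, gave -1.27 (adjusted p = 0.125). Of the immunoproteasome subunits *Psmb9* gave 0.61 ± 0.35 and *Psmb10* -0.93 (adjusted p = 0.0119). The probe set of *Psmb8* with the highest mean gave 0.04, and another of this gene 2.35 (adjusted p = 0.0112). MHC class II genes were mostly below the filter, with 3 of 8 measured and none called.

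Of 20 genes reported to depend on IRF1, 12 were measured, of which 2 were higher (*Nlrc5* and *Trim21*) and none lower. Their interactions were positive for 7 and negative for 5, between -1.82 and 2.28, with a median of 0.13. IFNγ raised 7 of the 12 with CHX and 7 without CHX. The list's median response was 3.89 with CHX and 4.04 without CHX.

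The GTPase families known for their induction by IFNγ had no member called in the interaction, which is near the shares over all genes. Of 7 measured immunity-related GTPases IFNγ raised 6 with CHX and 6 without CHX, with median responses of 7.11 and 7.24. For *Igtp*, *Irgm1*, *Irgm2* and *Iigp1* the interaction lay between −0.16 and 0.19, with SE of 0.20 to 0.41, while *Ifi47* gave -1.82 and *Gm4951* 1.24. Of 6 guanylate-binding proteins IFNγ raised 4 with CHX and 4 without CHX, and the interaction was -1.37 for *Gbp2*, -0.29 for *Gbp6* and 0.89 for *Gbp7*. Of 19 antiviral genes of the IFIT, OAS and Mx type none was called, with a median of -0.05.

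**Figure D5:**
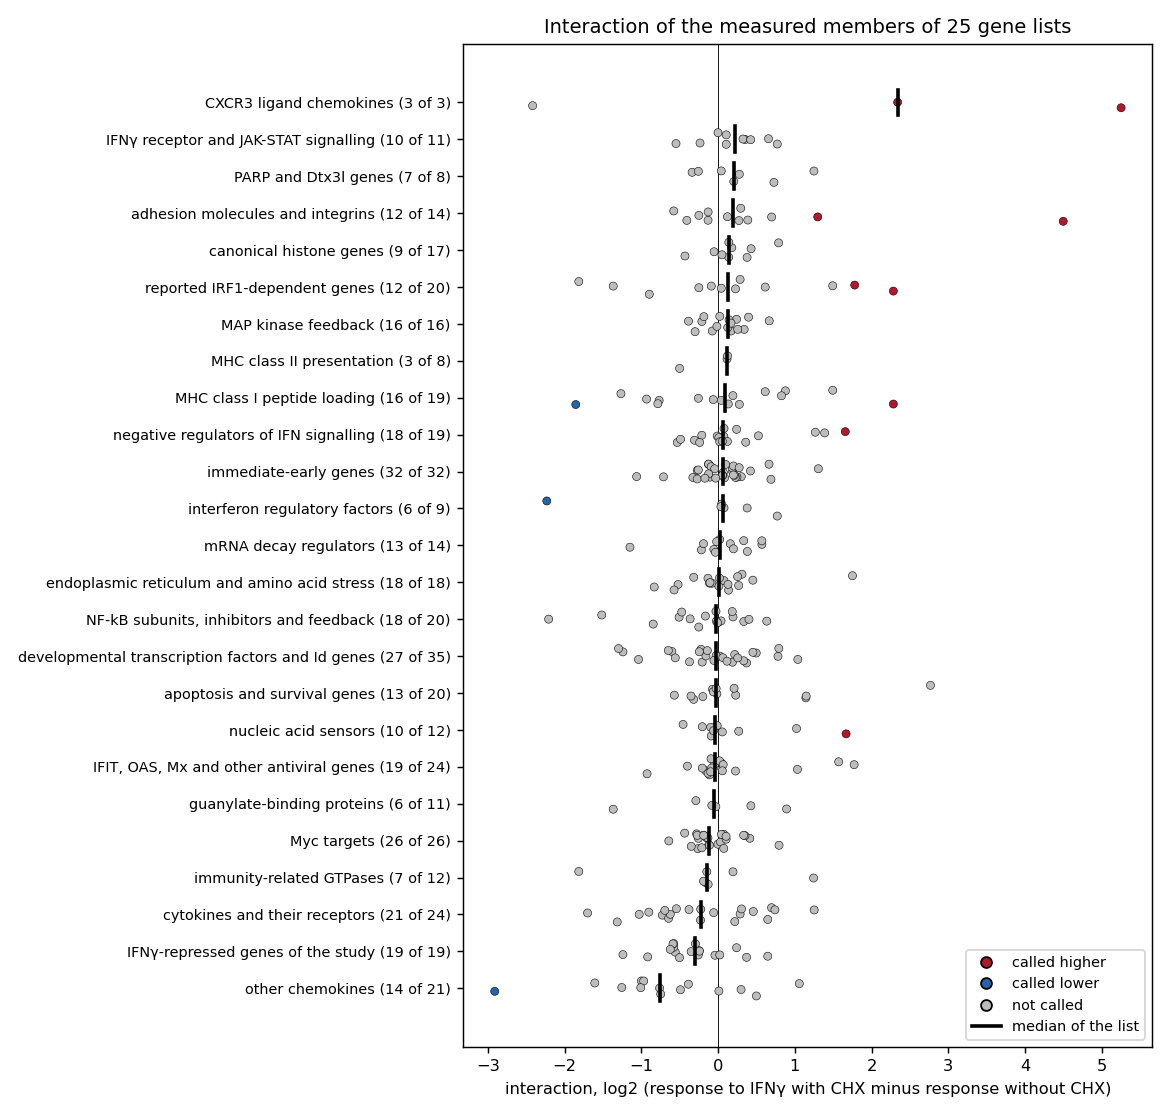
Interaction (log2, response to IFNγ with CHX minus response without CHX) of the measured members of 25 gene lists, ordered by the list's median (black bar). Each point is a gene with its brightest probe set, red called higher, blue called lower and grey not called, and the numbers in brackets are the members measured and listed. Most lists centre near 0, the CXCR3 ligands lie highest and the other chemokines lowest.

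Components of the pathway itself had no member called. The receptor chains *Ifngr1* and *Ifngr2* gave 0.11 ± 0.17 and -0.55 ± 0.59, and the kinases *Jak1* and *Jak2* 0.35 ± 0.24 and 0.32 ± 0.22. The inhibitors *Socs1* and *Socs3* were raised by IFNγ in both conditions, *Socs1* by 4.43 with CHX and 3.16 without CHX. *Socs1* intensities were 1268, 1244 and 690 with IFNγ and CHX, 46.9, 66.9 and 34.6 with CHX alone, 2051, 768 and 1169 with IFNγ alone and 172, 117 and 127 in mock cells, so that the interaction of 1.27 ± 0.51 (adjusted p = 0.535) went with a lower signal under CHX alone. *Socs3* gave 0.36 ± 0.39. Of 18 measured negative regulators *Usp18* was the 1 called. Of 6 measured IRF genes *Irf1* was the 1 called, and of 10 nucleic acid sensors *Ddx58* was. Of 12 adhesion molecules and integrins *Icam1* and *Itgb8* were called.

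Most NF-κB genes were raised by CHX without IFNγ. CHX raised 13 and lowered 1 of 18 measured subunits, inhibitors and feedback genes in mock cells, against 309 and 655 of all 12121 genes. IFNγ raised 2 of the 18 with CHX and 2 without CHX, and none was called in the interaction. *Tnfaip3*, a feedback inhibitor, had 9861, 7159.8 and 7997 with IFNγ and CHX, 10899, 7558 and 6910.1 with CHX alone, 751, 652 and 493 with IFNγ alone and 904, 829.8 and 650.3 in mock cells (interaction 0.33 ± 0.29, CHX effect in mock cells 3.40). *Nfkbia*, the gene of IκBα, gave an interaction of 0.04 ± 0.14. Canonical histone genes were likewise raised by CHX in mock cells, 8 of 9 measured, with no call in the interaction.

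Of the 19 genes that the study followed as repressed by IFNγ, all were measured. The names were taken from the study, so that their direction is no independent result. IFNγ lowered 12 with CHX and 8 without CHX, against 74 and 35 of all 12121 genes. The median response was -1.61 with CHX and -1.22 without CHX, and none of the 19 was called in the interaction. Their median interaction was -0.30, with 15 negative and 4 positive values, against 6405 negative and 5716 positive over all genes. The transcription factor gene *Hes1* gave -1.24 (adjusted p = 0.721).

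No member was called among 32 immediate-early genes, 16 MAP kinase feedback genes, 13 mRNA decay regulators, 26 Myc targets, 18 stress genes of the endoplasmic reticulum and amino acid response, 27 developmental transcription factors, 21 cytokines and receptors, 13 apoptosis genes and 7 PARP genes. Their medians lay between -0.23 and 0.20.

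Whether CHX acted differently with the other IFN was tested as the CHX effect in IFNγ-treated minus that in IFNα-treated cells, in which the mock arrays cancel. It was higher for 24 probe sets (0.0864%) and lower for 39 (0.14%). This difference shares the 6 IFNγ arrays with the interaction, so their calls are not independent. Of the 55 higher probe sets, 20 were called higher and 1 lower in this difference. With IFNα in place of IFNγ, the interaction had the same sign for 45 of them and was called higher for 12. Of the 11 lower ones, 9 had the same sign with IFNα, none was called there, and 3 were called lower in the difference. Both interactions share the mock arrays, from which part of the shared signs may follow.

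*Icam1* stayed at 5.9, 5.9 and 6.9 with IFNα and CHX and at 5.2, 5.2 and 5.3 with IFNα alone, so that the difference between the IFNs was 4.39 ± 0.34 (adjusted p = 9.09e-06). *Serpinb1a*, *Serpinb1b* and *Sgk2* were likewise flat with IFNα, and differed by 4.62 ± 0.40, 3.97 ± 0.16 and 3.22 ± 0.10 (adjusted p between 4.63e-10 and 2.62e-05). *Cxcl11* did not belong to these. Its interaction was 5.25 with IFNγ and 4.49 with IFNα, a difference of 0.77 ± 0.42 that was not called (adjusted p = 0.925).

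For *Cxcl9* the 2 probe sets disagreed. The brighter one had a larger interaction with IFNα (5.52) than with IFNγ (2.34), a difference of -3.18 ± 0.30, and the dimmer one a smaller interaction (0.60 with IFNα), a difference of 5.34 ± 0.31. *Krtap1-5* had 233, 105 and 40.9 with IFNα and CHX, against 4.9, 5.7 and 5 with IFNγ and CHX (difference -4.26 ± 0.60, adjusted p = 0.0036). *Ccl11* lay between 8.8 and 11.7 with IFNα, with and without CHX.

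Some large negative differences arose with IFNα. *Rsad2*, the gene of the antiviral enzyme viperin, was between 4.8 and 5.2 on all 12 arrays without IFNα, and at 159.9, 128 and 279 with IFNα and CHX, against 11.3, 13.6 and 10.8 with IFNα alone (difference -3.91 ± 0.28). *Gbp2*, a guanylate-binding protein gene, had 958, 964 and 860 with IFNγ and CHX against 2924, 3109 and 3261 with IFNγ, and 939, 768 and 547 with IFNα and CHX against 316, 299.6 and 294 with IFNα. CHX thus went with less *Gbp2* signal in IFNγ-treated and more in IFNα-treated cells (difference -3.02 ± 0.32, adjusted p = 2.63e-04). *Cd274*, an immune checkpoint ligand gene, moved likewise, with 118, 121 and 119 with IFNγ and CHX against 319.8, 274 and 326 with IFNγ, and 203, 231 and 208 with IFNα and CHX against 74.2, 85.9 and 68 with IFNα (difference -2.85 ± 0.19, adjusted p = 2.99e-06). The IFNγ interactions of *Gbp2* and *Cd274* by themselves, -1.09 and -0.90, were not called (adjusted p = 0.258 and 0.0598). These values of *Gbp2* are from a dimmer probe set than the one in the gene list.

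Of the 66 calls, 31 of 55 higher and 3 of 11 lower held in each of the 12 fits that left out 1 array. Fitted on the 12 arrays alone, without the IFNα arrays that also inform the spread, 24 probe sets were called higher and 3 lower, of which 23 and 2 were among the 55 and 11.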

How the data were processed

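The deposited table holds 1 linear intensity per probe set and array for Affymetrix mouse genome arrays. By the methods, the authors obtained the intensity scale through gc-RMA normalization in Bioconductor, and the submitters' processing notes name Affymetrix Expression Console without a version. Of 45101 probe sets 64 controls were left out. Present calls were not used here, so a cut on each probe set's maximum over the arrays (8.5 or more) kept 27773, about as many as in the study. Log2 values of all 18 arrays were fitted in 1 model of 6 treatments with limma 3.58.1 under R 4.3.3 (12 residual and 2.05 prior degrees of freedom) without a replicate term, and p-values were adjusted by Benjamini-Hochberg over all probe sets kept for each contrast. The call needed an adjusted p under 0.01 and 2-fold. The fit was tested on simulated data. Errors are SE of the fit. Arrays have no depth, and their number limits the precision.

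Of the probe sets kept, 22348 had a single symbol, 659 several and 4766 none. In gene lists the probe set of highest mean stands for its gene. Named genes are the 15 largest interactions in each direction with the same sign for all 3 replicate numbers (11 existed below 0), up to 4 called members of each list, a set of pathway genes, and the 5 largest differences between the IFNs in each direction. Others were picked after their values had been seen. The members, gene lists and rules were chosen with earlier results of these data known. One pathway gene was below the filter and 1 is not reported here. Promoters were matched by symbol to RefSeq, GRCm38.p6. Alternatives were the constant, scaling, filters, replicate block, array weights, trend, arrays used and each array left out.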

Additional observations from a re-analysis of the deposited data

Results flagged for a closer look

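The response to IFNγ differed with and without CHX for 55 probe sets (higher with CHX) and 11 (lower with CHX), by the test of the interaction itself. The CHX effect in IFNγ-treated cells exceeded that in IFNα-treated cells for 24 probe sets and fell short of it for 39, also by a direct test.

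With each gene given by its probe set of largest difference, the 5 largest positive differences between the IFNs were 5.34 for *Cxcl9*, 4.62 for *Serpinb1a*, 4.39 for *Icam1*, 3.97 for *Serpinb1b* and 3.22 for *Sgk2*, on the log2 scale. The *Cxcl9* value is that of the dimmer of 2 probe sets, and the brighter one gave −3.18. The 5 largest negative differences by the same rule were −4.26 for *Krtap1-5*, −3.91 for *Rsad2*, −3.13 for *Ccl11*, −3.02 for *Gbp2* and −2.85 for *Cd274*.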

How the results depend on the processing

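No called interaction of a named gene changed sign under any alternative run. Counts of higher and lower interactions were 24 and 3 with the 12 arrays alone, 83 and 20 with array weights (whose estimation stopped before convergence), 116 and 34 at an adjusted p under 0.05, and 39 and 7 without the filter. Without the replicate 1 arrays of IFNγ with CHX and of CHX alone, an alternative chosen after seeing the data, they were 42 and 4. Leaving out 1 array at a time gave 32 to 60 higher and 4 to 12 lower. The lowest totals came without mock replicate 2 (32 and 4) and without replicate 2 of CHX alone (32 and 5). With 16 units added 39 of the 55 and 8 of the 11 calls were kept. The median interaction over all probe sets was −0.02 and changed little with quantile normalization and median centring.

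Deviations from the treatment means correlated above 0.1 in 15 of 18 same-numbered pairs of arrays (lowest −0.11, median 0.47). Among pairs of different number this held for 9 of 36 (median −0.30), and 9 of 12 arrays correlated best with their own number. Same-numbered arrays thus tended to vary together, though not every one did, and the main fit has no replicate term. With the replicate block the counts were 102 higher and 23 lower, which held all 55 higher calls and 10 of the 11 lower. *Cxcl10* was called lower in that fit (−2.42, adjusted p = 0.00707) and *Flt1* was not. IFNγ lowered 330 probe sets with CHX and 104 without CHX in that fit, and 112 without CHX with array weights, with which CHX raised 1068 in mock cells.

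For the difference between the IFNs the counts of higher and lower were 45 and 67 with array weights, 47 and 70 at an adjusted p under 0.05, and 15 to 35 and 26 to 44 with 1 array left out. Leaving out 1 array gave 131 to 246 probe sets lowered by IFNγ with CHX and 41 to 61 without CHX.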

Other observations

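Of the 55 probe sets with a higher response to IFNγ with CHX, 5 had no gene symbol. The 2 largest had 52.1, 60.9 and 90.6 and 91.5, 54.6 and 118 intensity units with IFNγ and CHX. On the other 9 arrays they had at most 6.1 and 9.1. Their interactions were 3.68 ± 0.22 (adjusted p = 9.25e-07) and 3.21 ± 0.43 (adjusted p = 0.00245). On these arrays the first exceeded 8.5, the lowest maximum kept, only with both agents, so its filter and its interaction rest on the same values.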
